A study of Mus musculus with 6 samples.

Results

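The genes described here encode the machinery of oxidative phosphorylation, measured in 3 cell lines of mouse endothelial progenitor cells (EPC). They were chosen by name: every probe whose gene name marks a subunit of NADH dehydrogenase, succinate dehydrogenase, the cytochrome bc1 complex, cytochrome c, cytochrome c oxidase or ATP synthase, as the Nduf, Sdh, Uqcr, Cyc1, Cycs, Cox and Atp5 symbols do. The rule found 98 probes of 79 gene names among 25697 probes. Of those names, 74 are current symbols in the RefSeq table of GRCm38.p6 and 5 are listed there as older synonyms. Most of the 98 probes gave no signal above background, so the lines could be compared for 15 probes of 14 genes. Among these 15, one difference passed the test: Cyc1 was 1.39-fold lower in EPC_Late than in EPC, a call that was lost under 9 of 15 alternative ways of processing or testing.

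All 3 lines came from lung of athymic nude mice, from cells sorted as Flk-1+/c-Kit+/CD45- and grown in mouse endothelial medium with serum. EPC is the primary line, harvested between passages 3 and 6. EPC_acLDL is a line re-sorted for cells that had taken up labelled acetylated low density lipoprotein, an uptake used as a mark of endothelial cells, and was also harvested between passages 3 and 6. EPC_Late is the EPC_acLDL line carried to high passage, 16 to 20 in the array labels, so that EPC_Late and EPC differ both in passage and in the acLDL sort, and the contributions of the sort and of passage cannot be told apart in that comparison. Each line is 1 derivation, and 2 arrays were hybridised per line. The study's methods speak of independent experiments that were run in duplicate, and the sources do not say which of these the arrays of a line are, so the p-values measure only the spread between these arrays, which may be technical.

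In oxidative phosphorylation, electrons from NADH enter the inner mitochondrial membrane through complex I and electrons from succinate through complex II. They pass to complex III, then by cytochrome c to complex IV, where oxygen is reduced. Complexes I, III and IV pump protons, and complex V, the ATP synthase, makes ATP from the gradient. Most of these subunits are encoded in the nucleus, and the symbols chosen here are those of nuclear genes. Endothelial cells are known for relying heavily on glycolysis for ATP while keeping active mitochondria.

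A probe was compared between lines when its detection p, the authors' measure of signal against the array's negative control beads, lay under 0.05 on each of a line's 2 arrays, in any of the 3 lines. By that rule 15.3% of the oxidative phosphorylation probes were above background, beside 9.08% of all probes. By gene name the shares were 17.7% and 11.8%. Between 2177 and 2365 probes had a detection p below 0.05 on an array. Of the 15 probes, 12 were above background on all 6 arrays, and Cox5a, Cycs and Ndufa4 were on 5, 4 and 4. Cox5a met the rule in EPC and EPC_acLDL, and Cycs and Ndufa4 met it in EPC_acLDL alone. Differences of these genes from those lines are therefore not independent of the rule. The other 83 probes were above background on no array, with intensities of 201.9 to 450.2, a median of 331.8 and a lowest detection p of 0.0526.

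**Figure D1:**
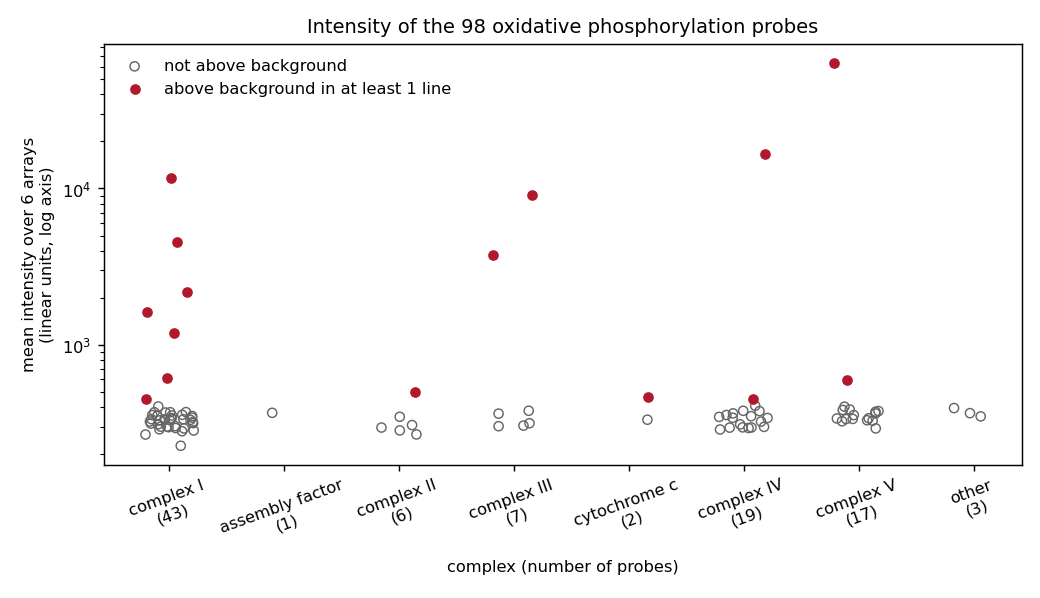
Mean intensity over the 6 arrays (log axis, linear units) of each of the 98 oxidative phosphorylation probes, grouped by complex, with filled points for the 15 probes above background in at least 1 line and open points for the other 83. The open points lie together near the median of 331.8 in every complex, and each complex holds at least 1 filled point while the assembly factor and the 2 other names hold none.

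Each of the 5 complexes, and cytochrome c, was represented. For complex I, 7 of 43 probes were above background, in 6 of 34 genes: Ndufa4, Ndufa6, Ndufa8, Ndufc1, Ndufv2 and Ndufs4, the last with 2 probes. Ndufa4 is named for complex I and is today counted with complex IV. The 28 complex I genes with no probe above background included Ndufa1, Ndufa2, Ndufa3, Ndufa5, Ndufa7, Ndufa9, Ndufa10, Ndufa12, Ndufa13, Ndufab1, Ndufb2 to Ndufb11, Ndufc2, Ndufs1, Ndufs3, Ndufs6, Ndufs7, Ndufs8 and Ndufv1, with intensities of 201.9 to 435.2. Ndufaf1, an assembly factor that the name rule also takes in, was not above background either.

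For complex II, 1 of 6 probes was above background, that of Sdhb, the iron-sulphur subunit, and the probes of Sdhc and Sdhd were not. For complex III, 2 of 7 were, those of Cyc1 and Uqcrc1, while Uqcr, Uqcrc2, Uqcrfs1, Uqcrh and Uqcrq were not. Cytochrome c itself, Cycs, had 1 of 2 probes above background. For complex IV the count was 2 of 19 probes, those of Cox5a and Cox6b1, with Cox4i1, Cox4i2, Cox5b, Cox6a1, Cox6a2, Cox6b2, Cox6c, Cox7a1, Cox7a2, Cox7a2l, Cox7b, Cox7b2, Cox8b and Cox8c below the limit of detection. For complex V it was 2 of 17, those of Atp5g3 and Atp5o, with Atp5a1, Atp5b, Atp5c1, Atp5d, Atp5e, Atp5f1, Atp5g2, Atp5h, Atp5j, Atp5j2, Atp5k, Atp5l and Atp5s below it. Cox4nb and Atp5sl, now called Emc8 and Dmac2, fit the name pattern without being subunits, and none of their 3 probes was above background. The other genes were placed in complexes by name alone, and whether each encodes a subunit was not checked.

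A probe at background does not show that its gene was silent. Of the 14 genes compared, 6 had further probes, 9 in all, and 8 of those 9 were at background on every array. Cox6b1 is an example, with 1 probe between 14247 and 19122 and the other at background. Genes that dividing cells transcribe abundantly fell on both sides. The probes of Actb, Ppia and Eef1a1 that were above background reached 70616, 70815 and 13019, while no probe of Gapdh, Vim, B2m or Fth1 was above it. The probe of Gapdh, a glycolytic enzyme, stayed between 270.5 and 301.5, and the probe of Vim, the intermediate filament vimentin, between 292.0 and 336.7. The alpha and beta subunits of the ATP synthase head, Atp5a1 and Atp5b, lay between 315.0 and 419.8 and between 345.1 and 409.7. The counts above are therefore counts of probes that gave a signal. Values are given under the gene names in the array file, and whether each probe read the RNA of the gene it is named for was not tested, which holds for every gene described here, Cyc1 included.

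The same held for markers of cell type. Of 12 endothelial genes, Kdr, which encodes the Flk-1 used in the sort, was above background, at 548.7 to 609.3. The other 11 were not, among them Pecam1 and Cdh5, the defining adhesion molecules of endothelium. The endothelial label could thus not be checked beyond Kdr. The summed intensity of the endothelial probes was 5022 to 5537 in EPC, 5044 to 5573 in EPC_acLDL and 5451 to 5811 in EPC_Late.

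The promoters of a few of these genes hold sites for nuclear respiratory factor 1 (NRF1), a transcription factor known for driving cytochrome c and other respiratory chain genes. In the 250 bases before each start site, the RefSeq promoter table of GRCm38.p6 held 13 of the 14 genes compared and 64 of the 79 names; Cyc1 had no entry. The letters GCGCATGCG were searched on both strands, where the site and its reverse complement can overlap each other. They stood in 6 of the 64 and in 2 of the 13, Cycs and Ndufa8, beside 1.64% of the 27025 genes of the table. The last 100 bases before each of those 2 start sites are shown because they are the windows of compared genes that hold this site, in capitals. Both genes lie on the minus strand, Cycs with chr6:50566570-50566669 and Ndufa8 with chr2:36049339-36049438 in GRCm38.p6.
Cycs: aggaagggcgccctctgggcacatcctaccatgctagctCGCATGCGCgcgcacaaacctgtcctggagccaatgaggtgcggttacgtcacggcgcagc
Ndufa8: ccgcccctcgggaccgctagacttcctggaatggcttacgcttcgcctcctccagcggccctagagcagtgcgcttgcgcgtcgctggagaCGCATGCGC
The site begins 61 bases before the start of Cycs and 9 bases before that of Ndufa8, and in both it reads on the opposite strand. The ETS-type letters CCGGAAGT stood in 3 of the 64 promoters and 3.23% of all, and the YY1-type letters AAGATGGCG in 2 of the 64 and 0.71% of all; neither stood in any of the 13. These matches describe letters in a window and not binding.

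The arrays were put on one scale by background correction and quantile normalization, and differences between lines are given on that log2 scale. Directions follow the labels of the arrays. By those labels Sox2, a stem cell transcription factor, was higher in EPC_acLDL than in EPC by 2.01 and in EPC_Late than in EPC by 2.67, and the text of the study gives the opposite direction. Every direction below rests on the same labels.

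Between EPC and EPC_acLDL no oxidative phosphorylation probe passed the test. The count was 0 of 15 at a limma adjusted p below 0.05, beside 3.30% of all probes compared, and it was also 0 at an unadjusted p below 0.05, beside 20.1% of all probes. The median difference of the 15 was 0.01, that of all probes was 0.01 as well, and the values ran from -0.39 for Ndufv2 to 0.29 for Ndufa4. The arrays of both lines did not overlap for 5 of 15 probes, beside 50.8% of all probes. For 9 of the 15 the 95% interval of the difference lay within 1.5-fold in either direction, and over all 15 the intervals reached from -0.84 to 0.83. The intervals differed in width from probe to probe. Each of the 15 held 0, so none of the measured differences could be told from none with these arrays.

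Ndufv2, a core subunit of complex I that carries an iron-sulphur cluster, had intensities of 1209 and 1297 in EPC, 1029 and 1268 in EPC_acLDL and 1221 and 1111 in EPC_Late. The ranges of EPC and EPC_acLDL overlapped on this scale and parted only after normalization. Its difference of -0.39 ± 0.18 (SE, n = 2 arrays per line) had a limma adjusted p of 0.29. It was -0.17 without EPC_acLDL replicate 1 and -0.62 without EPC_acLDL replicate 2. Ndufs4, an accessory subunit known to be needed for a stable complex I, gave close values with both of its probes, -0.27 ± 0.13 and -0.29 ± 0.16, and neither passed. Leaving out 1 array moved them between -0.37 and -0.15 and between -0.47 and -0.10, with the smallest sizes without EPC replicate 2.

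**Figure D2:**
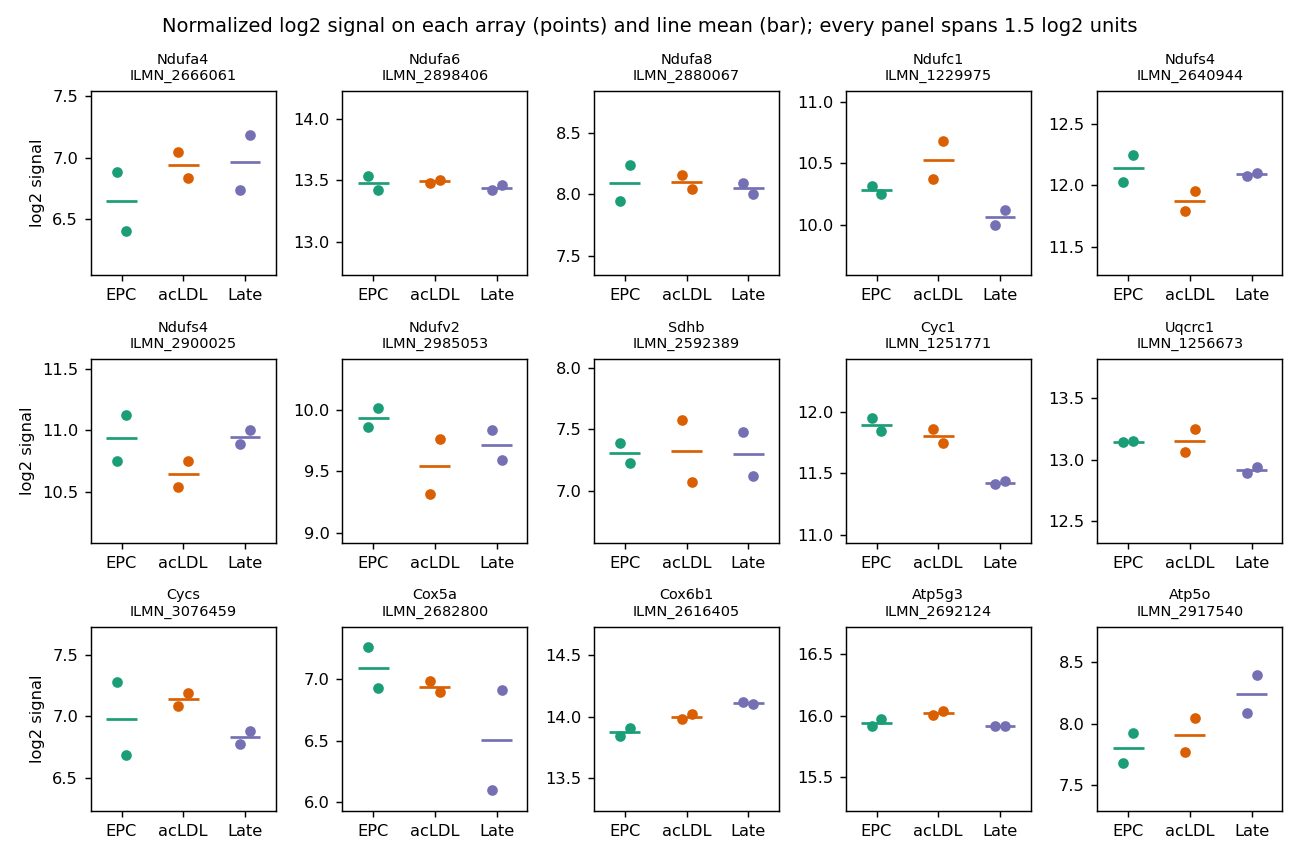
Normalized log2 signal of the 15 compared probes on each of the 6 arrays (points) with the mean of each line (bars), each panel spanning 1.5 log2 units. The EPC_Late arrays of Cyc1 and Uqcrc1 sit below those of both other lines, while Sdhb, Ndufa4 and Ndufa8 show overlapping points in all 3 lines.

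Between EPC and EPC_Late, 1 of 15 probes passed (6.67%), beside 23.9% of all probes compared. It was lower in EPC_Late, as 13.0% of all probes were. Of all probes called in this comparison, 54.4% were lower in EPC_Late after quantile normalization and 43.6% when the arrays' 75th percentiles were aligned instead. Another, Atp5o, had an unadjusted p below 0.05, which makes 2 of 15, beside 34.5% of all probes. The median of the 15 differences was -0.04 and that of all probes 0.01, with values from -0.59 for Cox5a to 0.44 for Atp5o. Of the 15 values, 11 were negative and 4 positive, beside 50.6% positive over all probes, and with 75th percentiles aligned 9 were negative and 6 positive. The arrays did not overlap for 7, beside 58.0% of all probes.

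The probe that passed belongs to Cyc1, the cytochrome c1 subunit of complex III, which hands electrons to cytochrome c. Its intensity was 4089 and 3649 in EPC, 4449 and 4032 in EPC_acLDL and 3050 and 3172 in EPC_Late. Both EPC_Late arrays lay below all 4 arrays of the other lines, which overlapped each other. On the normalized scale the means were 11.89 ± 0.08 in EPC, 11.80 ± 0.08 in EPC_acLDL and 11.42 ± 0.02 in EPC_Late (log2, SD, n = 2). Cyc1 fell by 0.47 from EPC to EPC_Late (SE 0.11, 95% interval -0.75 to -0.19, limma adjusted p = 0.028), which is 1.39-fold. The call was lost under 9 of 15 alternatives, over which the adjusted p of this comparison ranged from 0.000353 to 0.123. Among the 9 were each of the 6 fits that leave out 1 array, with differences of -0.52 to -0.41, and the alignment of 75th percentiles in place of quantiles, at -0.32. That shift moves the median of all probes in this comparison by 0.13, and against that median Cyc1 stood at -0.45. In EPC_acLDL minus EPC Cyc1 was at -0.10 after normalization and at 0.13 on the plain log2 intensities.

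Uqcrc1, a core protein of the same complex, had intensities of 9082 and 8693 in EPC, 10164 and 11037 in EPC_acLDL and 7696 and 7816 in EPC_Late. Its EPC_Late arrays were also the lowest of the 6. The difference from EPC was -0.23 ± 0.12 (SE) with a limma adjusted p of 0.23, which does not pass. The difference from EPC_acLDL was -0.24 ± 0.12, with an adjusted p of 0.23.

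Atp5o, the subunit that ties the head of ATP synthase to its side stalk, showed intensities of 506.8 and 567.5 in EPC, 559.1 and 639.3 in EPC_acLDL and 616.8 and 692.9 in EPC_Late. The EPC_Late arrays were above both EPC arrays and overlapped those of EPC_acLDL before normalization. EPC_Late minus EPC was 0.44 ± 0.17 (SE), with an unadjusted limma p of 0.041 and an adjusted p of 0.12. It was 0.19 without background correction and 0.28 to 0.60 without 1 array, the lowest without EPC_Late replicate 2 and the highest without EPC_Late replicate 1. Cox5a, a nuclear subunit of complex IV, gave 456.8 and 452.3 in EPC, 451.9 and 478.7 in EPC_acLDL and 383.7 and 478.2 in EPC_Late. Here a single EPC_Late array was low, and its detection p of 0.152 put it at background. The difference of -0.59 ± 0.27 (SE) had a limma adjusted p of 0.19. Without EPC_Late replicate 2, which leaves the low array alone, it was -1.01 with an adjusted p of 0.027, and over that comparison's alternatives the difference ranged from -1.01 to -0.18.

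The direction of Cox6b1, a subunit of complex IV on the side facing the intermembrane space, depended on the scaling. Its intensities were 15638 and 16084 in EPC, 19122 and 19115 in EPC_acLDL and 14979 and 14247 in EPC_Late, so that EPC_Late was the lowest line before normalization. After quantile normalization EPC_Late minus EPC was 0.23 ± 0.11 (SE), with a limma adjusted p of 0.19. With the shift to the 75th percentile it was -0.09, and the plain difference of the log2 intensities was -0.12. For this gene no direction is given. Over the normalizations tried, signs differed for 1, 4 and 4 of the 15 probes in EPC_acLDL minus EPC, EPC_Late minus EPC and EPC_Late minus EPC_acLDL, and with the plain log2 intensities added, for 3, 5 and 4.

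**Figure D3:**
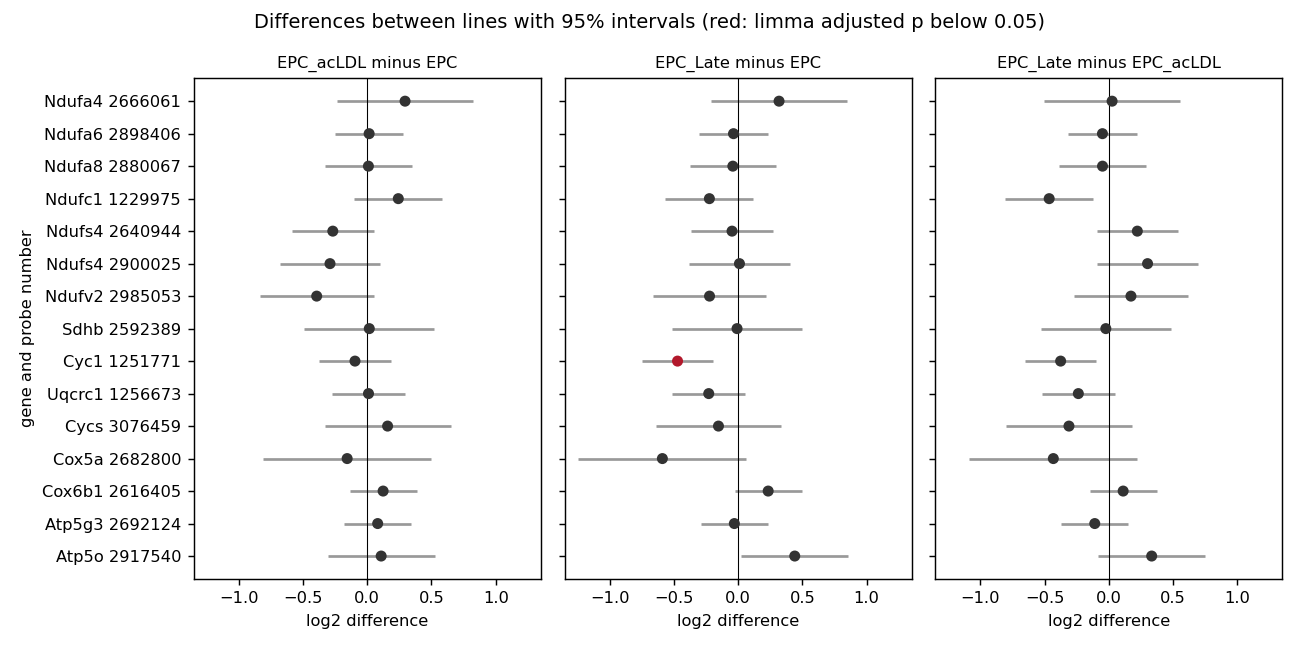
Log2 difference of each compared probe (points) with its 95% interval (bars) in the 3 comparisons between lines, on one scale. The red point, Cyc1 in EPC_Late minus EPC at -0.47, is the one with a limma adjusted p below 0.05.

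EPC_Late against EPC_acLDL is the comparison in which the acLDL sort is shared and passage differs. Here 0 of 15 probes passed, beside 20.9% of all probes compared, and 2 of 15 had an unadjusted limma p below 0.05, beside 31.9% of all probes. The median difference was -0.05 and that of all probes 0.00, with values from -0.47 for Ndufc1 to 0.33 for Atp5o. The arrays did not overlap for 10 of 15 probes, beside 58.6% of all probes. The 95% intervals reached from -1.09 to 0.75, and for 8 of the 15 they stayed within 1.5-fold.

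Ndufc1 and Cyc1 were the 2 probes with an unadjusted p below 0.05. Ndufc1, a small accessory subunit in the membrane arm of complex I, had intensities of 1531 and 1467 in EPC, 1849 and 2153 in EPC_acLDL and 1323 and 1395 in EPC_Late. Its 3 lines did not overlap, with EPC_acLDL highest and EPC_Late lowest. EPC_Late minus EPC_acLDL was -0.47 ± 0.14 (SE) with a limma adjusted p of 0.066. For Cyc1 it was -0.38 ± 0.11, with an adjusted p of 0.066 as well. Cyc1 passed under 5 of the 15 alternatives and Ndufc1 under 4.

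**Figure D4:**
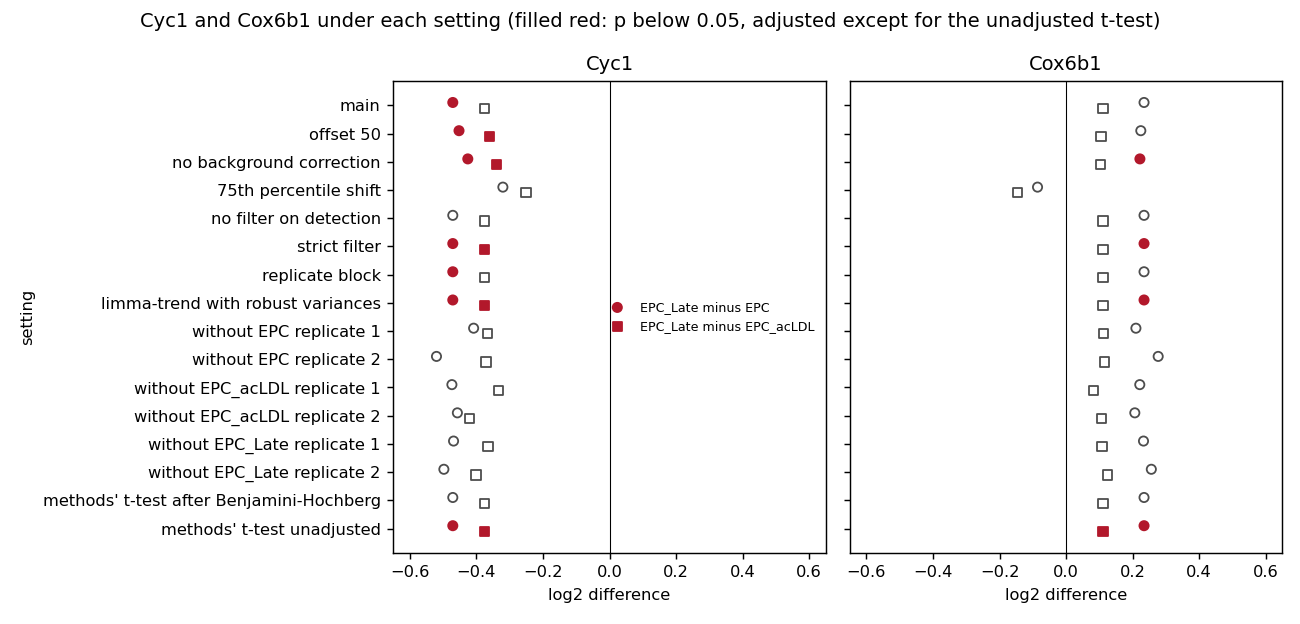
Log2 difference of Cyc1 and Cox6b1 in EPC_Late minus EPC (circles) and EPC_Late minus EPC_acLDL (squares) under each way of processing or testing, filled red where the p was below 0.05. Cyc1 stays negative, between -0.52 and -0.25, and passes the threshold under some settings only, while Cox6b1 changes sign with the 75th percentile shift.

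The remaining probes gave differences with no call in any comparison. Ndufa6, an accessory subunit of complex I, was at 10483 to 11535 in EPC, 12907 to 13762 in EPC_acLDL and 10527 to 10663 in EPC_Late, and its normalized differences were 0.01, -0.04 and -0.05 in the 3 comparisons. Its interval for EPC_Late minus EPC ran from -0.30 to 0.23. Ndufa8, which has an NRF1 site in the window shown, lay at 544.4 and 620.1 in EPC, 636.4 and 636.4 in EPC_acLDL and 617.3 and 617.3 in EPC_Late. Its normalized differences were 0.01, -0.04 and -0.05, with an interval of -0.38 to 0.29 for EPC_Late minus EPC. Cycs, which has one too, lay at 433.1 to 511.6 over all arrays, close to background, with differences of 0.16, -0.15 and -0.31, and intervals that spanned 0 in each comparison. Sdhb, at 470.7 to 528.6, differed by 0.02, -0.01 and -0.02, and Ndufa4, at 411.9 to 506.8, by 0.29, 0.32 and 0.02. Cycs and Ndufa4 were compared because they met the detection rule in EPC_acLDL alone, which can raise EPC_acLDL in their differences.

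Atp5g3, one of the genes for the ring subunit of ATP synthase, stood at 57827 to 69179, and the highest intensity on an array was between 70723 and 71993. It was therefore close to the upper end of the scale. Its intensities were 62422 and 63681 in EPC, 68717 and 69179 in EPC_acLDL and 58370 and 57827 in EPC_Late. The lines did not overlap, and EPC_acLDL was the highest. The normalized differences were 0.08, -0.03 and -0.11, and none passed. With 75th percentiles aligned they were -0.08, -0.08 and 0.00, so that 2 signs turned, and quantile normalization gave 3 of the arrays the same value, 15.91.

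Replicate arrays of a line correlated at 0.989 to 0.992 over all compared probes.

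Genes around the respiratory chain were taken from 4 lists. Of the tricarboxylic acid cycle, which supplies the NADH and succinate, none of 25 probes for 18 genes was above background. Of glycolysis, 6 of 22 probes were, for Hk1, Pfkm, Pfkp and Eno1. Of assembly factors and inner and outer membrane carriers, 2 of 36 were, for Bcs1l and Vdac3. Of regulators of mitochondrial biogenesis, 3 of 19 were, for Esrra and with 2 probes for Gabpb1.

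Vdac3, a channel of the outer mitochondrial membrane, fell in EPC_Late against EPC_acLDL. Its intensity was 6410 and 6042 in EPC, 10860 and 10847 in EPC_acLDL and 5042 and 5534 in EPC_Late. EPC_acLDL stood clear of both other lines. EPC_Late minus EPC_acLDL was -0.88 ± 0.11 (SE, limma adjusted p = 0.0033, 1.83-fold), and this call was lost under 1 of 15 alternatives. EPC_acLDL minus EPC was 0.54 ± 0.11, with an adjusted p of 0.061, and EPC_Late minus EPC was -0.33 ± 0.11, with an adjusted p of 0.081. These passed under 6 and 5 of the 15 alternatives.

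In glycolysis 1 of 6 probes was lower in EPC_Late than in EPC, beside 13.0% of all probes, and 1 of 6 was higher in EPC_Late than in EPC_acLDL, where 20.9% of all probes were called in either direction. The first was Hk1, a hexokinase that can sit on the outer mitochondrial membrane, at 543.7 and 553.1 in EPC, 540.4 and 515.7 in EPC_acLDL and 451.0 and 513.5 in EPC_Late. Both EPC_Late arrays were below the other 4, and the lower one, with a detection p of 0.0501, was at background. Hk1 met the detection rule in EPC and EPC_acLDL only, the lines where it was higher. The rule is therefore not independent of a lower value in EPC_Late. EPC_Late minus EPC was -0.87 (SE 0.21, limma adjusted p = 0.028), with the array at background taken at its measured value, a call lost under 6 alternatives, among them the fits without EPC replicate 1, EPC replicate 2 or EPC_Late replicate 1. Without background correction the difference was -0.30.

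The second was Pfkp, the platelet-type phosphofructokinase, which commits sugar to glycolysis. Its brighter probe gave 2867 and 2987 in EPC, 2574 and 2667 in EPC_acLDL and 3234 and 3310 in EPC_Late. The 3 lines did not overlap on this scale, with EPC_acLDL lowest. After normalization EPC_Late minus EPC was 0.01, with overlapping arrays and a limma adjusted p of 0.96, and EPC_acLDL minus EPC was -0.50, with an adjusted p of 0.090 that passed under 5 alternatives (range 0.0028 to 0.329). EPC_Late minus EPC_acLDL was 0.51 ± 0.12 (SE, limma adjusted p = 0.031), lost without either EPC_acLDL array, without either EPC_Late array, with no filter on detection and under 1 other alternative. The second Pfkp probe gave 0.41 ± 0.22, with an adjusted p of 0.27.

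Gabpb1, a subunit of the ETS-family factor GABP (also called NRF2) that is known to act on respiratory chain genes, was lower in EPC_Late with a different probe in each comparison. Probe ILMN_2646381 read 656.0 and 715.5 in EPC, 677.7 and 643.7 in EPC_acLDL and 569.8 and 621.8 in EPC_Late, and fell by 0.68 from EPC to EPC_Late (SE 0.15, limma adjusted p = 0.021). Probe ILMN_2646380 read 598.0 and 496.7 in EPC, 658.3 and 655.5 in EPC_acLDL and 496.2 and 517.4 in EPC_Late, and fell by 0.96 from EPC_acLDL to EPC_Late (SE 0.26, limma adjusted p = 0.047). In EPC_acLDL minus EPC the probes had opposite signs, -0.38 and 0.39, and neither passed. The first call was lost under 3 alternatives, 2 of them the fits without EPC replicate 2 or EPC_Late replicate 1. The second was lost under 6, among them the fits without any one of the EPC_acLDL or EPC_Late arrays. Without background correction the differences were -0.32 and -0.37. Esrra, a nuclear receptor that works with the same programme, gave -0.05, -0.14 and -0.10 in the 3 comparisons, and none passed.

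**Figure D5:**
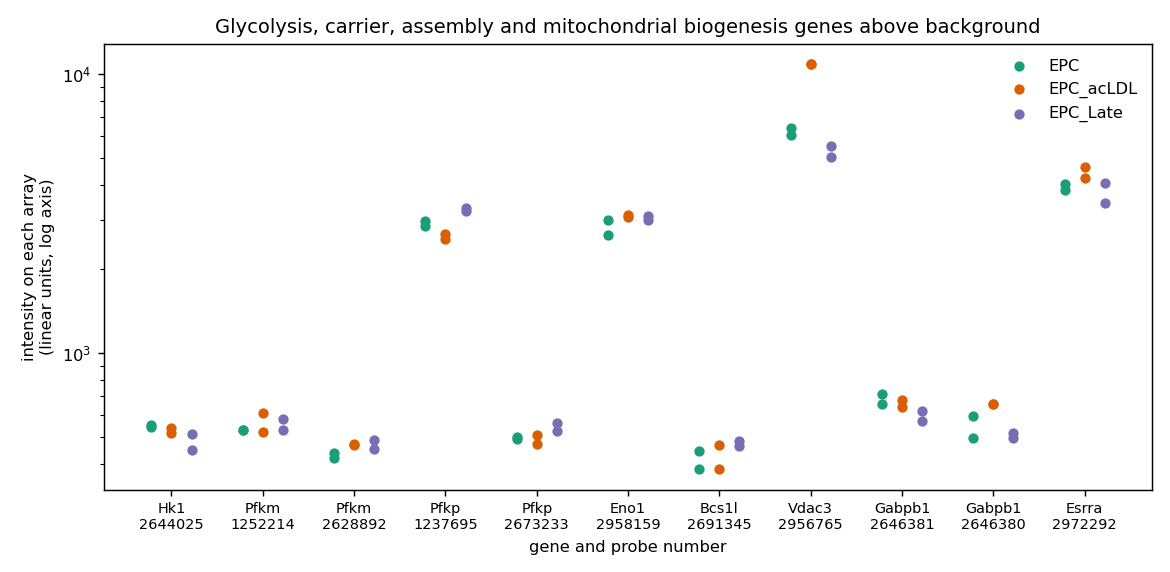
Intensity on each array (log axis, linear units) of the 11 probes above background among the glycolysis, carrier, assembly factor and biogenesis lists, coloured by line. The EPC_acLDL points of Vdac3, at 10860 and 10847, stand above those of both other lines, while the other probes differ less.

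Among markers of other cell types, 2 of 11 fibroblast and mural probes were above background, for Col1a2 and Acta2, and 1 probe each for the blood gene Csf1r and the epithelial gene Cdh1. Col1a2, a fibrillar collagen chain, was higher in EPC_Late than in EPC by 0.43 ± 0.12 (SE, limma adjusted p = 0.047). Its probe was close to background, at 431.5 to 530.8 over all arrays with a detection p of up to 0.0439. Whether this call holds under the alternatives was not examined. Acta2, a smooth muscle actin, gave -0.18 ± 0.14 in the same comparison and did not pass. The summed intensity of the fibroblast and mural probes was 3739 to 4005 in EPC, 3875 to 4220 in EPC_acLDL and 4097 to 4308 in EPC_Late. The blood probes summed to 2596 to 2893, 2579 to 2967 and 2899 to 3003, and the epithelial probes to 1691 to 1795, 1787 to 1856 and 1914 to 1965. Most of the probes in these sums were at background, and the median intensity of all probes was 311.0 and 342.4 in EPC, 304.6 and 345.2 in EPC_acLDL and 336.6 and 358.7 in EPC_Late. The part of these markers in the difference of Cyc1 was not tested. In bulk RNA, fewer cells that transcribe a gene and less RNA per cell cannot be told apart.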

How the data were processed

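RNA of 3 lines was measured on 6 Illumina MouseRef-8 arrays. The authors averaged the beads of a probe in BeadStudio, correcting for local background. They deposited linear intensity values that had not been normalized, and beside each one a detection p-value. Processing here used limma 3.58.1 in R 4.3.3: neqc (background from the detection p-values, offset 16, quantile normalization, log2), then lmFit and eBayes on all 6 arrays without covariates for 3 comparisons, over 2333 probes, calling an adjusted p (Benjamini-Hochberg) below 0.05. This was tried on simulated data with changes larger than any difference of the members, which says nothing on how well smaller ones are found. The number of arrays limits the precision. The name rule, the members and the lists were chosen with earlier results of these data known. Every member was accounted for, members past the threshold or near it were given in full, and probes of a gene were kept apart. Gene names come from the array file, promoters from RefSeq (GRCm38.p6). Alternatives were offset 50, leaving out the background correction, aligning 75th percentiles in place of quantiles (over the probes above background on all arrays), no filter, a stricter filter (detection p below 0.01 on all arrays), a replicate block, limma-trend with robust variances, leaving out each array, and the t-test that the study's methods name. With offset 50 the background was estimated from the intensities without the detection p-values, so the offset and the background estimate changed together.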

Additional observations from a re-analysis of the deposited data

How the results depend on the processing

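In EPC_acLDL minus EPC, 0 oxidative phosphorylation probes passed under every alternative. In EPC_Late minus EPC, the count of 1 became 3 without background correction, with limma-trend and with the methods' t-test unadjusted, 2 with the stricter filter, and 0 with the 75th percentile shift and with the t-test adjusted. Beside Cyc1, those that passed were Cox6b1 and, without background correction, with limma-trend and with the unadjusted t-test, Uqcrc1. Leaving out 1 array gave 0 to 1, and the 1, without EPC_Late replicate 2, was Cox5a and not Cyc1. Without the filter the count was again 1, and the probe was that of Cox7a2l, which is above background on no array. In EPC_Late minus EPC_acLDL, the count of 0 became 2 with offset 50 and with the stricter filter, 3 without background correction and with the unadjusted t-test, 4 with limma-trend, and 1 without the filter (Cox4nb, above background on no array). Beside Cyc1 these were Ndufc1, Uqcrc1 and Atp5g3, and in the unadjusted t-test Cox6b1 and Atp5g3. Leaving out 1 array gave 0 to 1, again Cox5a without EPC_Late replicate 2. A fit that leaves 1 array in a line takes its spread from the other lines. Leaving out 1 array gave median differences of -0.04 to 0.03, -0.15 to -0.04 and -0.10 to -0.03 in EPC_acLDL minus EPC, EPC_Late minus EPC and EPC_Late minus EPC_acLDL, beside 0.01, -0.04 and -0.05 with all arrays. The -0.04 came without EPC replicate 2, the -0.15 without EPC replicate 1 and the -0.10 without EPC_acLDL replicate 2. Other processing gave -0.02 to 0.05, -0.04 to -0.03 and -0.05 to 0.00. The share of all probes called moved with these settings too. In EPC_acLDL minus EPC, EPC_Late minus EPC and EPC_Late minus EPC_acLDL it was 3.30%, 23.9% and 20.9%, and it became 7.03%, 27.4% and 24.6% with offset 50, 11.7%, 29.2% and 26.1% without background correction, 3.99%, 25.6% and 21.7% with the 75th percentile shift, 0.195%, 1.91% and 1.52% without the filter, 19.0%, 52.2% and 47.5% with the stricter filter, 12.0%, 29.7% and 27.0% with limma-trend, and 15.2%, 25.1% and 24.3% with the t-test unadjusted or 0.0429%, 0.643% and 0.471% adjusted. Leaving out 1 array gave 0.386% to 1.54%, 15.9% to 20.1% and 8.70% to 19.7%. The causes were not tested. The number of arrays, 2 per line, limits the precision.

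The main fit did not pair arrays by replicate number. On the normalized scale, deviations of same-numbered arrays correlated at 0.08, 0.02 and 0.03 between lines. Normalization removes a shift of a whole array, so these correlations cannot show one. Before normalization, the median intensity of replicate 2 was above that of replicate 1 in each line. With a replicate block, 2 probes passed in EPC_Late minus EPC, Cyc1 and Atp5o, and 0 in the other comparisons, beside 1.84%, 23.4% and 19.6% of all probes.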
